A study of Mus musculus with 32 samples.

Results

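Of 56459 features counted in ribosome-associated RNA of mouse forebrain neurons, 47 were high in all 4 GABAergic groups, low in all 4 glutamatergic groups, and close to one another in level across the GABAergic groups. They were chosen on CPM, the count of a feature per 1000000 counts of its library, averaged over the 4 libraries of a group. A chosen feature reached 1 CPM or more in each of the 16 GABAergic libraries, its lowest GABAergic mean was at least 3 times its highest glutamatergic mean, and its highest GABAergic mean was under 2 times its lowest. The contrast between GABAergic and glutamatergic groups and the evenness among GABAergic groups are therefore properties of the choice, and both are given below as a description with no test. Each feature is known only by an identifier that starts with GSMG. The table pairs these with no gene names and none was found in the reference tables (0 matches), so no gene name, sequence or function is given for any member.

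GABAergic neurons make the inhibitory transmitter GABA from glutamate with glutamate decarboxylases and load it into vesicles with a transporter that glutamatergic neurons largely lack, while glutamatergic neurons load glutamate with transporters of their own. In cortex and hippocampus most inhibitory cells are local interneurons of several classes, which share this transmitter machinery and differ in peptides, calcium-binding proteins and targets. Parvalbumin (PV) cells mostly contact the cell body and its surroundings, somatostatin (SST) cells mostly contact dendrites, and vasoactive intestinal peptide (VIP) cells mostly contact other interneurons.

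The labels place 32 libraries in 8 groups of 4, which are PV, SST, VIP, CamK and Scnn from cortex and SST, CamK and Grik from hippocampus. Every library is labelled wild type (WT), and no label used here states age, sex or a driver allele. As background that the labels do not state, each name stands for a Cre driver that marks a population whose tagged ribosomes are then pulled down, with CamK, Scnn and Grik taken as glutamatergic. A driver can also be active in cells outside its population, and RNA of other cells can be carried along in a pull-down. No defining marker of any class could be looked up, so the labelled populations were not checked on marker genes. All groups of hippocampus and the VIP group of cortex carry a W in their titles, and the other groups do not. Within CamK and within SST the effects of region and of title series therefore cannot be told apart. Nor can a difference of VIP from the other groups of cortex be told apart from title series. Nothing in the labels says that the 4 libraries of a group came from separate animals. The p-values below measure only the spread between libraries of a group, estimated over all 32 libraries. Library totals were 100158438 to 114153919 counts apart from SST hippocampus replicate 1 at 186505391, and every member held at least 525 counts over the 4 libraries of each GABAergic group.

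The 47 features are a small remainder of those present in interneurons. Of 12421 features at 1 CPM or more in all 16 GABAergic libraries, 108 met the 3-fold condition, and 61 of these were then left out for unevenness. The share within 2-fold across the GABAergic groups was 43.5% among the 108 and 70.5% among all 12421. Of the 61 uneven features, 33 were highest in PV cortex, 14 in VIP cortex, 9 in SST hippocampus and 5 in SST cortex. The same rule turned round, with the glutamatergic groups high and even, chose 13 features. There 11960 features were at 1 CPM or more in all 16 glutamatergic libraries, and 38 of these met the 3-fold condition. The share within 2-fold across the glutamatergic groups was 34.2% among the 38 and 75.1% among all 11960. A lower share of even features under the 3-fold condition was thus seen on both sides.

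**Figure D1:**
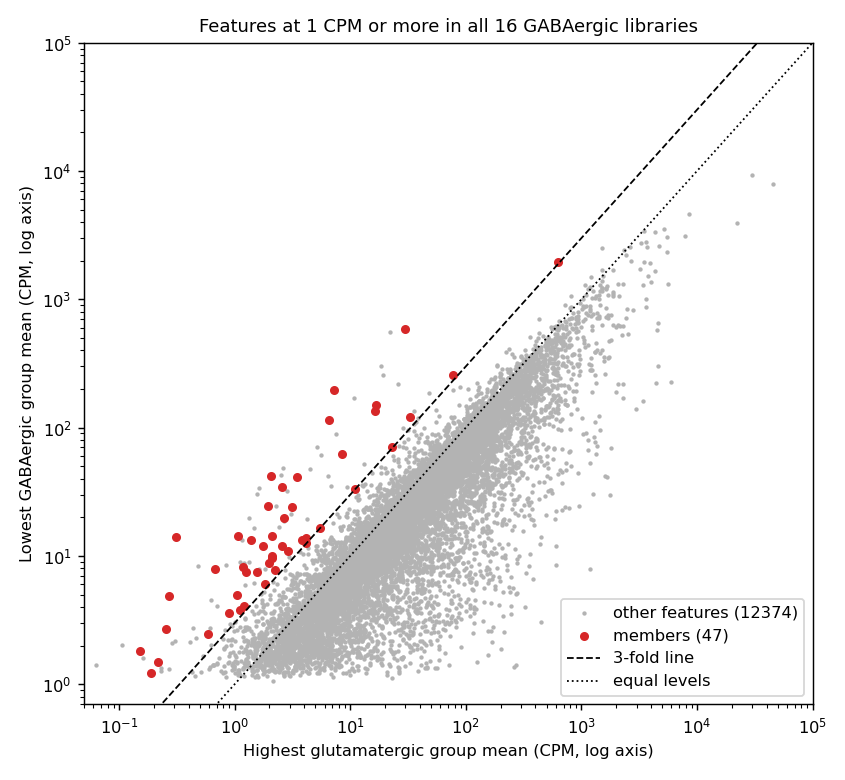
Each point is 1 of the 12421 features at 1 CPM or more in all 16 GABAergic libraries, with its highest glutamatergic group mean on the x axis and its lowest GABAergic group mean on the y axis (CPM, both axes logarithmic). The 47 members, in red, lie on or above the dashed 3-fold line, and the grey features above that line exceed the 2-fold limit on evenness.

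The ratio of the lowest GABAergic to the highest glutamatergic mean ran from 3.02 to 44.9 among the 47 features, with a median of 6.47. It was at least 10 for 13 of them. Taken within cortex alone the ratio ran from 3.02 over a median of 6.97 to 44.9, and within hippocampus from 3.89 over 9.77 to 82.3. Within the libraries without a W in the title the median was 6.98, and within those with a W it was 9.39, with lowest values of 3.11 and 3.20, and the rule holds every subset to at least 3. All 16 GABAergic libraries lay above all 16 glutamatergic libraries for 46 of the 47, where the background was 5.93% of the 12421 features, but the rule used this contrast and nothing is read from the count. GSMG0024189 had the largest ratio, 44.9. Its level was 17.5, 19.3, 18.5 and 17.2 CPM in the PV libraries, 15.3, 14.1, 14.7 and 14.8 CPM in SST cortex, 13.4, 16.3, 12.7 and 13.8 CPM in VIP, and 25.0, 25.4, 25.1 and 24.1 CPM in SST hippocampus. In the glutamatergic libraries it lay between 0 and 0.501 CPM, and 3 of the 4 CamK hippocampus libraries held no count of it. A count of 0 allows up to 3 counts, or 0.0281, 0.0272 and 0.0276 CPM in these libraries, by counting error only. No GABAergic library of GSMG0024189 came near any glutamatergic one, and within the GABAergic side SST hippocampus stood above the other groups without overlap. GSMG0022957 followed with a ratio of 26.9 at a far higher level. Its GABAergic libraries ran from 170.5 CPM over a median of 222.8 to 302.9 CPM, and its glutamatergic libraries from 0.485 over 4.63 to 9.86 CPM.

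At the 3-fold limit the choice was a matter of small differences. GSMG0015263 (ratio 3.02) and GSMG0016432 (3.03) lay just inside, and GSMG0005594 (2.99987) and GSMG0004898 (2.99) just outside with the other conditions met. At the evenness limit GSMG0017094 (highest over lowest GABAergic mean 1.99559) and GSMG0038957 (1.98) lay just inside, and GSMG0038956 and GSMG0029082 (both 2.01) just outside. GSMG0038957 and GSMG0038956 have consecutive identifiers, and their GABAergic means were lowest in PV and highest in SST hippocampus in both, at 1.23 to 2.43 CPM and 41.9 to 84.0 CPM. Only GSMG0038957 of these is a member. Among the members themselves, 2 pairs have consecutive identifiers. The files do not say whether such features lie next to each other or overlap, and with strand use in counting not stated their values may not be separate measurements.

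The choice was repeated with single libraries left out. The rule names the groups of all 32 libraries and was set with these data known, and a left-out library is a replicate of a group still in use, so the shares that follow describe the spread between libraries and are no independent support. With each of the 32 libraries left out in turn, the rule chose 44 to 50 features, and 34 of the 47 were chosen every time. In the left-out library, when it was GABAergic, 90.0% to 100% of the features chosen without it (median 97.9%) were at least 3 times the highest glutamatergic mean. When it was glutamatergic, 89.1% to 100% (median 97.8%) were at or under the lowest GABAergic mean divided by 3. A left-out GABAergic library lay within 2-fold of each of the other 3 GABAergic groups for 79.6% to 97.9% of the features chosen without it, with 79.6% to 89.6% in PV, 81.6% to 90.9% in VIP, 85.4% to 95.7% in SST hippocampus and 91.7% to 97.9% in SST cortex.

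Levels spanned 3 orders of magnitude. The mean over the 16 GABAergic libraries ran from 1.66 to 2623 CPM with a median of 17.0 CPM, against a median of 26.2 CPM over the 12421 features present in all these libraries. Over the 16 glutamatergic libraries the means ran from 0.0973 to 487.1 CPM, with a median of 1.39 CPM. Of the 47 features, 34 had a GABAergic mean of at least 10 CPM and 8 of at least 100 CPM. The deposited feature lengths of the members were 527 to 6632 bases with a median of 1670, and the median was 1437 over the 12421.

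**Figure D2:**
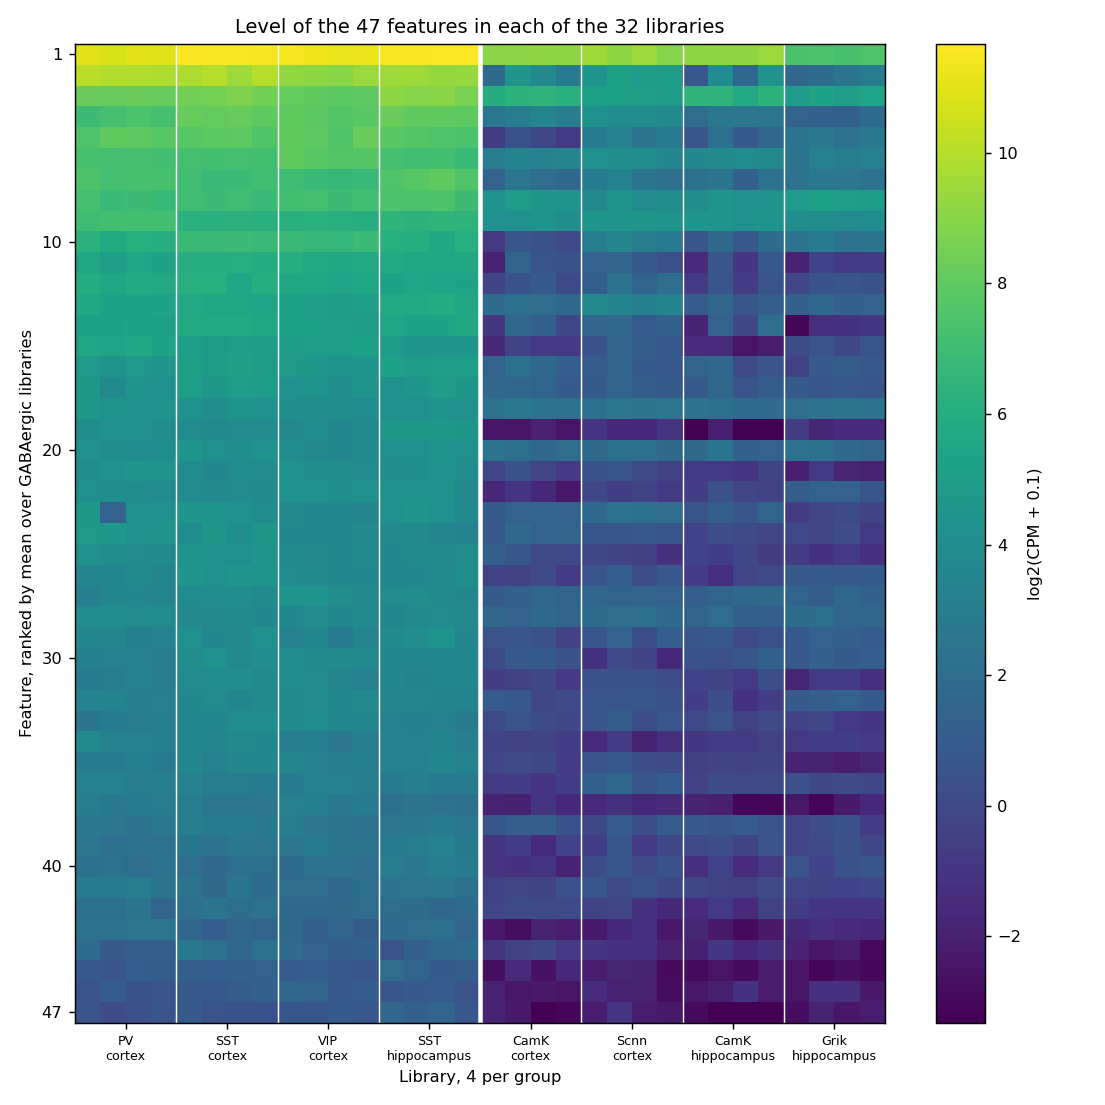
Each row is 1 of the 47 features, ranked by its mean over the 16 GABAergic libraries, and each column 1 library, with 4 columns per group and the GABAergic groups left of the thick line. Colour gives log2(CPM + 0.1). Within a row the left side varies by less than 2-fold between group means, as the rule sets, and single libraries vary more, as the dark PV cell at rank 23 shows. The right side varies between groups and, in many rows, between libraries of 1 group.

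GSMG0033088 was the most abundant member and held 48.1% of the summed GABAergic level of all 47. Its PV libraries stood at 2036, 1729, 2058 and 1949.9 CPM, its SST cortex libraries at 3015, 2895, 2953 and 2863 CPM, its VIP libraries at 2870.3, 2611, 2233 and 2429 CPM, and its SST hippocampus libraries at 2892, 3048, 3130.4 and 3256 CPM. It was also the most abundant member in the glutamatergic groups, at 553.1 ± 20.2 CPM in CamK cortex, 624.8 ± 124 CPM in Scnn cortex, 602.5 ± 51.5 CPM in CamK hippocampus and 167.9 ± 11.9 CPM in Grik hippocampus (SD, n = 4 each). Its ratio of 3.11 was near the limit, with PV the lowest GABAergic group, and Grik lay apart from the other glutamatergic groups. GSMG0022089 came next, with 982.5 ± 102 CPM in PV, 913.9 ± 147 CPM in SST cortex, 590.8 ± 66.8 CPM in VIP and 688.8 ± 45.3 CPM in SST hippocampus, and a ratio of 20.04. Per kilobase of deposited length GSMG0033088 and GSMG0022089 also ranked first and second among the members, at 1386 and 281.6 CPM per kilobase. GSMG0007671 had the second highest glutamatergic level, with a range of 29.6 to 87.3 CPM over the 16 libraries and 238.4 to 546.6 CPM over the GABAergic ones.

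Evenness was graded rather than complete. The ratio of highest to lowest GABAergic mean had a median of 1.62 and was under 1.5 for 13 of the 47 features. GSMG0035026 was the most even, with a ratio of 1.15. Its libraries stood at 9.35, 9.37, 7.97 and 8.79 CPM in PV, 9.88, 7.90, 7.84 and 7.44 CPM in SST cortex, 7.54, 9.06, 9.69 and 8.33 CPM in VIP, and 7.17, 8.64, 7.51 and 7.49 CPM in SST hippocampus. The 4 groups of GSMG0035026 overlapped throughout. GSMG0029034, with a ratio of 1.17, had means of 15.5 ± 0.668, 13.3 ± 0.519, 13.6 ± 1.28 and 13.4 ± 1.37 CPM in the same order of groups (SD, n = 4), and 3 of its 4 PV libraries lay above all others. For 39 of the 47 the libraries of the highest and the lowest GABAergic group did not overlap, where the background was 86.5% of the 12421 features. The rule bounded this difference, so nothing is read from that count.

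On column totals PV and VIP cortex were most often the lowest GABAergic group, for 17 features each, against 8 for SST hippocampus and 5 for SST cortex. SST cortex was most often the highest, for 19 features, followed by SST hippocampus with 11, PV with 10 and VIP with 7. Relative to the mean of the 4 groups on the log2 scale, the median member lay at 0.17 in SST cortex, -0.02 in SST hippocampus, -0.10 in VIP and -0.11 in PV. Over the 12421 features the medians were 0.01, -0.01, 0.05 and -0.06. The positions of VIP and PV depend on the scaling. TMM factors, which scale libraries to a common bulk of features, were 1.14 to 1.24 in VIP and 0.961 to 1.06 in the other GABAergic libraries, and with them the VIP median was -0.27 and VIP was the lowest group for 29 of the 47. The PV median was then -0.02 and PV was the lowest for 11. With TMM-scaled CPM the rule chose 34 features, of which 31 were among the 47.

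**Figure D3:**
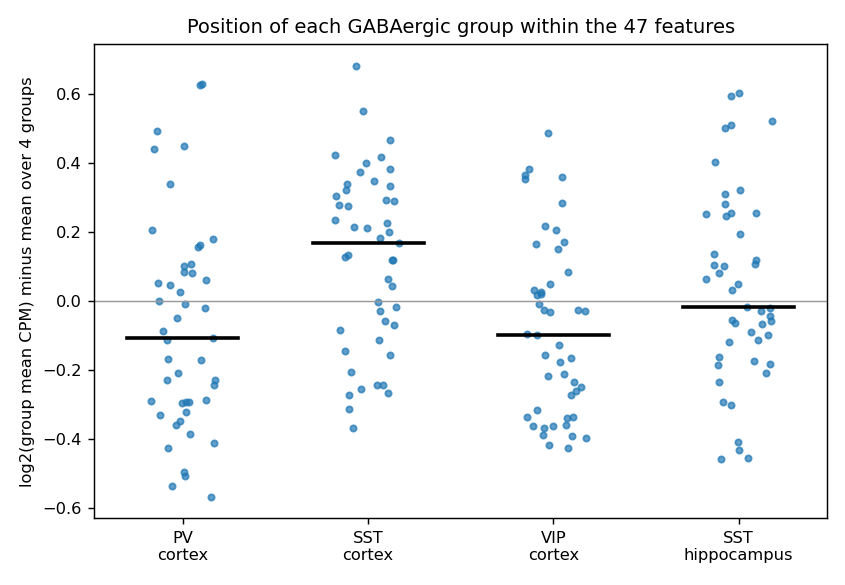
For each of the 47 features and each GABAergic group, the y axis gives log2 of the group mean CPM minus the mean of that value over the 4 groups, and black bars mark medians. The points stay within 0.68 of 0, a spread that the rule bounds, with the median of SST cortex at 0.17 and those of PV and VIP near -0.1.

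In the glutamatergic groups the same features were low but far from even. Their 4 glutamatergic means differed by a median of 3.18-fold between the highest and the lowest group, and by 2-fold or more in 36 of 47. The widest ratio, that of GSMG0038957, has no exact value, since its CamK hippocampus level rests on 4 counts in 1 library. GSMG0001182 came next with 10.4-fold. The median member stood at 1.79 CPM in Scnn cortex, 1.19 CPM in CamK cortex, 1.19 CPM in Grik hippocampus and 0.973 CPM in CamK hippocampus. Scnn cortex set the highest glutamatergic level for 25 features, CamK cortex for 10, Grik hippocampus for 9 and CamK hippocampus for 3. Grik hippocampus was the lowest for 20. Of the 47, 9 were under 1 CPM in all 4 glutamatergic groups and 17 at 1 CPM or more in all 4. The median spread between libraries of a group was also wider, with coefficients of variation of 22.0% to 34.7% in the glutamatergic groups and 9.79% to 11.8% in the GABAergic groups. In bulk libraries fewer cells with a transcript and less of it per cell cannot be told apart.

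Differences between glutamatergic groups were tested with edgeR, since the rule capped the highest of their means and set no order among them. A feature was called at a Benjamini-Hochberg adjusted p under 0.05 over the 24555 features tested and a change of at least 2-fold. All 47 members were among those tested, but the filter on low counts saw all 32 libraries, and some members passed it through the GABAergic groups for which they were chosen. With only the libraries of the 2 groups compared, 47 members passed for Scnn against CamK cortex with 15 calls, 44 for CamK hippocampus against cortex with 9 calls in place of 12, and 45 for Grik against CamK hippocampus with 12 calls in place of 16. All shares over all features given below belong to the fit of all 32 libraries. None is given for the 2-group fits, so their counts are not set against a background. The calls include GSMG0038957, counted as lower in CamK hippocampus than in CamK cortex and as higher in Grik, although it had 4 counts over the 4 CamK hippocampus libraries. In at least 1 of the 3 comparisons 27 of the 47 (20 in none) were called, where the background was 33.1% of all features tested. The 3 comparisons share CamK libraries, so their counts are not independent. Spread was estimated over all 32 libraries, including the GABAergic ones, in which members varied less. The fit of only the 2 groups compared also holds fewer libraries. For features named below in the first 2 comparisons it gave larger adjusted p-values in edgeR than those printed. Examples are 1.59e-05 for GSMG0022957 and 0.0245 for GSMG0016443 in Scnn against CamK cortex, and 0.0282 for GSMG0011614 in CamK hippocampus against cortex.

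By their median, members leaned towards higher levels in Scnn than in CamK cortex. Fitted log2 fold changes were above 0 for 32 of 47, and no such share was taken over all features. Of the 47, 10 were called higher and 5 lower in Scnn, against 13.7% higher and 5.94% lower (19.6% either way) of all features tested. Higher calls thus outnumbered lower calls over all features as well, and the calls give no direction particular to the members. At the adjusted p alone 27 were called, where the background was 41.7%. The median log2 fold change of the members was 0.49, against -0.01 over all features. Without Scnn replicate 2 it was 0.32, against 0.00 over all features, with 9 members called higher and 6 lower, and without any other single library it was 0.39 to 0.64. The libraries of both groups did not overlap for 23 of the 47, where the background was 34.8%. GSMG0022957 differed most. It stood at 7.13, 9.86, 5.46 and 6.79 CPM in the Scnn libraries and at 0.515, 1.28, 0.852 and 0.485 CPM in CamK cortex. The lowest Scnn library of GSMG0022957 was thus over the highest CamK library (log2 difference of the groups 3.13 with SE 0.30, adjusted p in edgeR = 3.77e-09), while its GABAergic means were 196.6 to 251.0 CPM. GSMG0024209 had the same order, at 8.14, 11.002, 7.77 and 6.87 CPM in Scnn and 0.470, 1.51, 1.19 and 0.946 CPM in CamK cortex (log2 difference 2.95 with SE 0.28, adjusted p in edgeR = 2.87e-09).

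Not all members followed that direction. GSMG0007671 was lower in Scnn, at 35.6, 36.5, 32.3 and 29.7 CPM against 61.3, 83.2, 86.8 and 68.4 CPM in CamK cortex (log2 difference -1.25 with SE 0.13, adjusted p in edgeR = 1.97e-09). GSMG0016443 was lower as well, at 0.362, 0.927, 0.736 and 0.238 CPM against 1.01, 1.69, 1.82 and 1.21 CPM (log2 difference -1.43 with SE 0.27, adjusted p in edgeR = 7.045e-05). Both pairs of groups were apart without overlap. Scnn libraries held 14299 to 14733 features of at least 1 CPM, and CamK cortex libraries 13619 to 14008. The summed level of the 13 features chosen by the rule turned round was 9019.7, 7952, 9385 and 9189 CPM in the Scnn libraries and 7585 to 8128 CPM in CamK cortex. Scnn replicate 2 had the lowest of these sums in Scnn and the most features of at least 1 CPM, 14733. Its summed level of the members was the highest in Scnn without GSMG0033088, at 261.4 CPM. With GSMG0033088 it was 820.3 CPM, under the 973.0 CPM of Scnn replicate 1. The 13 features were chosen on the group means of these same libraries, so their sums are a description only. The part of carried-over RNA in the Scnn difference was not tested.

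Between regions, CamK neurons differed in members of both directions. Of the 47, 4 were called higher and 8 lower in CamK hippocampus than in CamK cortex, against 5.43% higher and 8.46% lower (13.9% either way) of all features tested. At the adjusted p alone 19 were called, where the background was 35.5%. Without CamK hippocampus replicate 4 it was 4 higher and 4 lower, and without CamK hippocampus replicate 2, or with only these 2 groups in the fit, 4 and 5. Without CamK hippocampus replicate 3, and with DESeq2, it was 4 and 10. The number of lower calls thus varied with single libraries, and it equalled that of higher calls without CamK hippocampus replicate 4. No shares over all features are given for these other fits. Lower calls also outnumbered higher calls over all features tested, so their order is not read as particular to the members. The median log2 fold change was -0.22, against -0.0026 over all features, and ranged from -0.33 without CamK cortex replicate 4 (also without CamK hippocampus replicate 5) to -0.14 without CamK cortex replicate 2 (also without CamK hippocampus replicate 2). Libraries did not overlap for 9 of the 47, under the background of 34.5%. GSMG0022957 was again among the higher features, at 1.46, 4.39, 1.79 and 3.01 CPM in hippocampus, every library over those of CamK cortex given above (log2 difference 1.71 with SE 0.30, adjusted p in edgeR = 5.555e-05). GSMG0011614 was at 0.934, 1.07, 0.737 and 1.43 CPM in hippocampus and 0.378, 0.598, 0.258 and 0.713 CPM in cortex. Its groups were only just apart (log2 difference 1.04 with SE 0.28, adjusted p in edgeR = 0.00336), and without CamK cortex replicate 1, CamK cortex replicate 3 or CamK hippocampus replicate 5 it fell under 2-fold, at 0.97, 0.84 and 0.87. Lower in hippocampus were GSMG0035597, at 0.706, 1.07, 0.932 and 0.769 CPM against 1.63, 3.38, 2.53 and 2.72 CPM (log2 difference -1.61 with SE 0.21, adjusted p in edgeR = 1.275e-07), and GSMG0041586, at 0.694, 0.588, 0.796 and 0.534 CPM against 2.24, 1.48, 0.892 and 0.876 CPM (log2 difference -1.13 with SE 0.25, adjusted p in edgeR = 0.000571). The call of GSMG0041586 rested on CamK cortex replicate 1, its highest library, without which the log2 fold change was -0.75. Here region cannot be told apart from title series.

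Within the hippocampus, Grik differed from CamK in both directions. Of the 47, 10 were called higher and 6 lower in Grik, against 6.99% higher and 6.4% lower (13.4% either way) of all features tested. At the adjusted p alone 26 were called, where the background was 32.9%. The median log2 fold change was 0.06 with TMM and -0.03 with column totals, against 0.02 and -0.05 over all features, so it gave no direction. Libraries did not overlap for 20 of the 47, where the background was 31.8%. GSMG0001182 was higher in Grik, at 1.02, 1.35, 0.860 and 1.41 CPM against 0.272, 0.269, 0.0772 and 0.121 CPM in CamK (log2 difference 2.74 with SE 0.29, adjusted p in edgeR = 1.01e-08). Its Scnn mean of 1.93 CPM was the highest of the glutamatergic groups and set its ratio of 12.8. GSMG0028454 was also higher, at 1.83, 2.27, 2.57 and 1.80 CPM against 0.5999, 1.13, 0.359 and 0.564 CPM (log2 difference 1.77 with SE 0.23, adjusted p in edgeR = 1.73e-07).

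The most abundant member was lower in Grik. GSMG0033088 stood at 163.3, 169.2, 155.4 and 183.5 CPM in Grik and 562.3, 588.8, 581.1 and 678.0 CPM in CamK hippocampus (log2 difference -1.76 with SE 0.10, adjusted p in edgeR = 1.72e-15). GSMG0011605 was at 0.523, 0.765, 0.926 and 0.735 CPM in Grik and 1.40, 2.20, 1.44 and 2.80 CPM in CamK (log2 difference -1.33 with SE 0.40, adjusted p in edgeR = 0.0111). Both features were apart between the groups without overlap, but the call of GSMG0011605 was lost without CamK hippocampus replicate 5 (log2 difference -1.08, adjusted p = 0.0621) and without Grik hippocampus replicate 3 (log2 difference -1.17, adjusted p = 0.0504). GSMG0011605 was also the only member whose GABAergic and glutamatergic libraries overlapped. PV replicate 2 held 2.54 CPM, where the other PV libraries held 25.1, 18.4 and 18.8 CPM, and Scnn replicate 2 held 4.99 CPM.

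**Figure D4:**
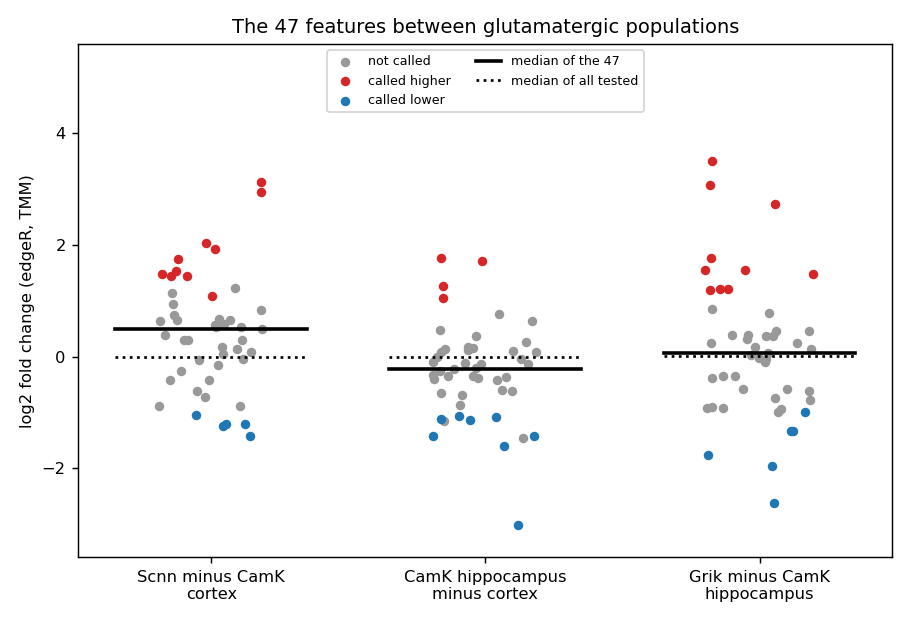
Each point is 1 of the 47 features and the y axis its log2 fold change (edgeR, TMM) in 3 comparisons of glutamatergic groups, red where called higher and blue where called lower. Solid bars are medians of the 47 and dotted bars medians of all 24555 features tested. The members have a median of 0.49 in Scnn against CamK cortex, 0.32 without Scnn replicate 2, and spread both ways in the other comparisons.

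GSMG0022957 and GSMG0024209 had the same order over the glutamatergic groups, from CamK cortex over CamK hippocampus and Grik hippocampus to Scnn cortex. The means of GSMG0022957 were 0.782 ± 0.369, 2.66 ± 1.33, 5.81 ± 0.927 and 7.31 ± 1.85 CPM in that order (SD, n = 4 each). Those of GSMG0024209 were 1.03 ± 0.437, 2.57 ± 1.22, 5.56 ± 0.951 and 8.44 ± 1.79 CPM. Grik and Scnn libraries of GSMG0022957 overlapped, while the other neighbours in its order did not. For GSMG0024209 CamK cortex overlapped CamK hippocampus, and Grik overlapped Scnn. GSMG0033088 had another order, with Grik lowest and the other groups within their spread.

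Members also moved together between libraries of 1 glutamatergic group. In Scnn replicate 2, 39 of the 47 features (83.0%) lay above the mean of the other 3 Scnn libraries, against 37.9% of all features tested. In CamK cortex the share of members was 23.4%, 76.6%, 61.7% and 21.3% in replicates 1 to 4, against 41.1%, 42.2%, 51.8% and 47.5% of all features. In CamK hippocampus it was 29.8%, 70.2%, 21.3% and 61.7% in replicates 2 to 5, against 51.8%, 53.9%, 31.7% and 44.1% of all features, so that in replicates 3 and 4 all features lay to the same side of the other libraries. In Grik it was 31.9%, 70.2%, 57.4% and 40.4% in replicates 3 to 6, against 48.3%, 47.2%, 47.8% and 41.0% of all features. GSMG0022089 shows this for a feature of high GABAergic level, at 3.51, 22.7, 13.4 and 7.49 CPM in CamK cortex and 1.59, 15.7, 3.31 and 20.5 CPM in CamK hippocampus. The highest library of GSMG0022089 was several times the lowest in both groups. Without GSMG0033088, the summed level of the members was 168.3, 242.0, 225.4 and 181.0 CPM in CamK cortex, 220.9, 261.4, 215.2 and 205.3 CPM in Scnn, 190.1, 230.4, 155.1 and 222.3 CPM in CamK hippocampus, and 143.0, 175.2, 160.9 and 167.6 CPM in Grik. The part of this shared movement in the differences between groups was not tested.

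On the GABAergic side VIP cortex showed the widest such movement. In VIP replicate 3, 7 of the 47 features (14.9%) lay above the mean of the other 3 VIP libraries, against 59.6% of all features tested. In VIP replicate 1 it was 36 (76.6%), against 44.5% of all features. In the other GABAergic groups the lowest share of members was 21.3% (SST hippocampus replicate 5, 41.9% of all features). The highest was 72.3% (SST cortex replicate 1, 46.9% of all features). The summed level of the members was 5585, 5144, 4490.0 and 5052 CPM in the VIP libraries, while that of the 13 features of the rule turned round was 1115, 1483, 1977 and 1211 CPM. VIP replicate 3 had the least of the members and the most of these 13 features among the VIP libraries. The sum of the 13 was 685.4 to 920.6 CPM in the other GABAergic libraries, under every VIP library. Both lists were chosen on the group means of these same libraries, so the sums are a description only. The part of RNA from other cells in the VIP levels was not tested.

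**Figure D5:**
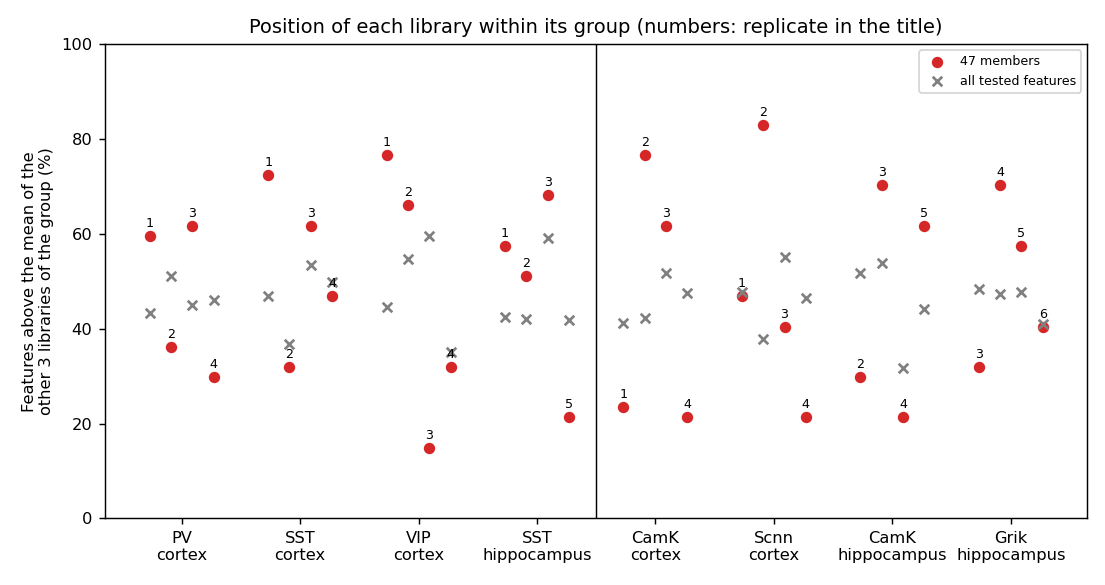
For each library, red points give the percent of the 47 features above the mean of the other 3 libraries of its group, and grey crosses the same over all features tested. Numbers are replicates as in the titles, and the black line separates GABAergic from glutamatergic groups. Scnn replicate 2 at 83.0% and VIP replicate 3 at 14.9% lie farthest from the crosses of their libraries.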

How the data were processed

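Per the submitters' processing notes, featureCounts, Picard, SAMtools, FastQC and the build GRCm38 were used. The sources used here do not name the aligner, the annotation or the strand setting. A stranded kit for polyadenylated RNA was used on 50 ng per library, per the labels' protocols. The authors deposited expected counts, which are estimates and often fractional (20.1% of values above 0 were whole within 1e-06). Deposited lengths were taken as bases. Another 12 columns of per-sample values in the table match no sample here and were not used. CPM used column totals. Counts were rounded, filtered with filterByExpr (24555 of 56459 features kept), scaled by TMM and fitted with the robust quasi-likelihood model of edgeR 4.0.16 (R 4.3.3) to all 32 libraries. SE is the log2 fold change over the square root of F. Recovery was tried on simulated counts of 23426 features for Scnn against CamK cortex. Where a 1.5-fold difference was put in, 39 of 67 features passed an adjusted p of 0.05. With 2-fold it was 61 of 67, and with 4-fold 66 of 66. Among 23226 features given no difference, 12 passed. Passing here needed no 2-fold change, while a call does, so these numbers do not give the recovery of calls. These counts were not split by level, and 27 of the 47 members had a mean of 1 CPM or more in CamK cortex. They therefore give no recovery for members under 1 CPM there. No 2 libraries of a group agreed within sampling noise (chi-square per degree of freedom 13.3 or more).

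The members, the rule and the comparisons were chosen with earlier results of these data known. Gene lists could not be looked up, since no identifier is paired with a name. Named features are those with the 2 largest ratios, the 2 highest GABAergic and the 2 highest glutamatergic levels, the 2 most even, the 2 nearest inside and outside each limit, and per comparison the 2 largest log2 fold changes each way among called members with at least 1 CPM in the higher group and no overlap between groups. Alternatives were DESeq2 1.42.0, other scalings, filters and thresholds, a 2-group fit, a replicate block and leaving out each library.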

Additional observations from a re-analysis of the deposited data

Results flagged for a closer look

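Within groups of 4, 168 sets of values of the named members and of their summed levels were examined by Dixon's test. It looks for 1 library far from the other 3. Of these sets 8 were flagged, near the 1 in 20 that chance flags, so nothing is read from their number. GSMG0038957 was high in SST cortex replicate 1 (1.69 CPM, others 1.26 to 1.33), in Scnn replicate 2 (0.390 CPM, others 0.112 to 0.129) and in CamK hippocampus replicate 2 (0.0375 CPM, others 0). GSMG0024189 was high in CamK cortex replicate 3 (0.163 CPM, others 0.0761 to 0.0862) and in CamK hippocampus replicate 3 (0.154 CPM, others 0). GSMG0001182 was high in SST hippocampus replicate 1 (28.8 CPM, others 22.6 to 23.6), and GSMG0016432 in Grik hippocampus replicate 4 (3.25 CPM, others 2.32 to 2.48). GSMG0007671 was low in CamK hippocampus replicate 4 (52.8 CPM, others 82.4 to 87.3). The levels of GSMG0038957 and GSMG0024189 in CamK hippocampus rest on 4 and 16 counts in 1 library. With the other 3 libraries at 0 any count is flagged, so these flags follow from the zeros.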

How the results depend on the processing

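The number of features chosen was 116 with a ratio of at least 2 and 32 with at least 4, 13 within 1.5-fold and 74 within 3-fold evenness, 34 and 39 with TMM and RLE scaling, 48 and 43 with minima of 0.5 and 2 CPM, and 44 to 50 with single libraries left out. Without the fold threshold, 27 of the 47 features were called between Scnn and CamK cortex, 19 between CamK hippocampus and cortex and 26 between Grik and CamK hippocampus, against 15, 12 and 16 with it. Leaving out single libraries gave 15 to 17, 8 to 14 and 14 to 18 calls. With replicate number as a block, which could be fitted within a title series only, the calls were 15 for Scnn and 15 for Grik, and GSMG0011605 was lost (adjusted p = 0.0754). Same-numbered libraries had correlations of -0.02 to 0.04 in their deviations from group means, and 1 of 4 Scnn and 1 of 3 Grik libraries correlated best with its own number. DESeq2, RLE, column totals, other filters and the 2-group fit gave 15 to 17, 9 to 14 and 12 to 18 calls, and no named feature turned its direction in any alternative. Depth limits the lowest levels, since the lowest member held 34 counts over the 4 libraries in CamK cortex, 58 in Scnn, 4 in CamK hippocampus and 19 in Grik.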
